A study of Mus musculus with 4 samples.

Results

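Gene expression in the cell bodies of mouse dorsal root ganglion (DRG) neurons was compared between cultures whose axons had been stimulated electrically and cultures left without stimulation. The comparison used 2 of the 4 arrays of the series, 1 array on each side, and covered the 6284 genes named by 8496 of the 9600 spots of an array. A spot entered when the platform annotation gave it 1 gene, and a gene's value is the mean over its spots. The other 2 arrays, of stimulated and of unstimulated axons, were used only to set axon values beside some genes.

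DRG neurons are the sensory neurons of the trunk and limbs, and each sends a single branching axon to the skin or muscle and to the spinal cord, with its nucleus and most of its RNA in the cell body. When action potentials enter a cell body, calcium entry and cAMP act through kinases on transcription factors such as CREB, and within minutes to hours immediate early genes such as Fos and Egr1 are known to be induced in many neurons. At the same time microRNAs, RNA-binding proteins and decay enzymes set how long each mRNA persists, so that an mRNA can become less abundant within hours.

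Both cultures came from embryonic day 13.5 embryos of NIH Swiss mice and were kept in Campenot chambers, where axons cross below a divider and leave the cell bodies behind. All cultures shared the fluorodeoxyuridine given against dividing cells that are not neurons, and all were kept overnight in medium without serum or nerve growth factor before the experiment. In the stimulated group, axons were driven through platinum electrodes for 2 h, and the unstimulated group received no current. The sample records give 3 weeks in culture, 3 pooled coverslips and 3 µg of RNA for each sample, whereas the methods of the study describe a longer range of culture times, more RNA and a pool of separate experiments. The RNA was amplified, labelled with a radioactive nucleotide and hybridized to nylon membranes spotted with cDNA clones of human genes, so that human symbols stand here for mouse RNA. With 1 pooled array a side there was no replicate, no p-value can be given, and every difference below is a difference between these 2 arrays. In a pooled culture, fewer cells of a type and less RNA per cell cannot be told apart.

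The median spot was dimmer after stimulation, at 118.1 against 159.7, while the summed intensity of both arrays was almost the same. Many spots held exactly 10, as a fill-in value would, 359 on the stimulated and 361 on the unstimulated array, and others held varied values below 10. Neither was taken as a measured level. Values of 10 or lower stood at 732 spots of the stimulated and 596 spots of the unstimulated array, and all 384 blank spots were among them on both arrays. Each array was therefore put on its own scale. The log10 intensity was turned into a z-score over all spots of the array, and the z ratio is the stimulated minus the unstimulated z-score in units of the SD of such differences among the 9600 spots, which was 0.259. A gene was counted as higher from a z ratio of 1.4 upward and as lower from -1.4 downward, the threshold that the study used. It corresponds to a 2.01-fold departure from the line on which both z-scores are equal. That line was not a raw ratio of 1. At an unstimulated intensity of 100 it lay at a stimulated to unstimulated ratio of 0.712, at 1000 it lay at 0.889, and at 10000 it lay at 1.11, so that a dim gene can have a lower raw intensity after stimulation and a z ratio near 0.

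By this measure the 2 cell body arrays were much alike. Their z-scores correlated at 0.967 over the 9600 spots, and the median gene z ratio was 0.05. Of the 6284 genes, 86 were higher (1.37%) and 187 were lower (2.98%) in stimulated cell bodies. Of these 273 genes, 237 rested on 1 spot and 130 had a spot at or below 10, where no level was measured. Among the 5935 genes whose spots all lay above 10 on both arrays, 33 were higher (0.556%) and 110 were lower (1.85%). Among the 2782 of them that also lay above the array mean, 0 were higher (0%) and 4 were lower (0.144%). The counts depended on the scaling. A robust z-score gave 172 higher and 151 lower genes, quantile normalization 133 and 150, and a log2 ratio centred on array medians 56 and 219.

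Where a gene lay on the brightness scale set how far its z ratio could stray. In the dimmest sixth of the genes with all spots above 10, the SD of the z ratio was 0.91 and 11.5% of genes passed the threshold, while in the brightest sixth the SD was 0.21 and 0 genes passed. Spots of 1 gene differed from each other on these membranes by as much or more, except in the dimmest sixth. Over genes with 2 or more spots, the SD between spots of 1 gene was 0.81 in the dimmest sixth and 0.27 in the brightest, and it was 0.46 over the 718 such genes above the array mean. These spots share the RNA and the membrane, so that this SD measures technical spread and not the spread between cultures.

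**Figure D1:**
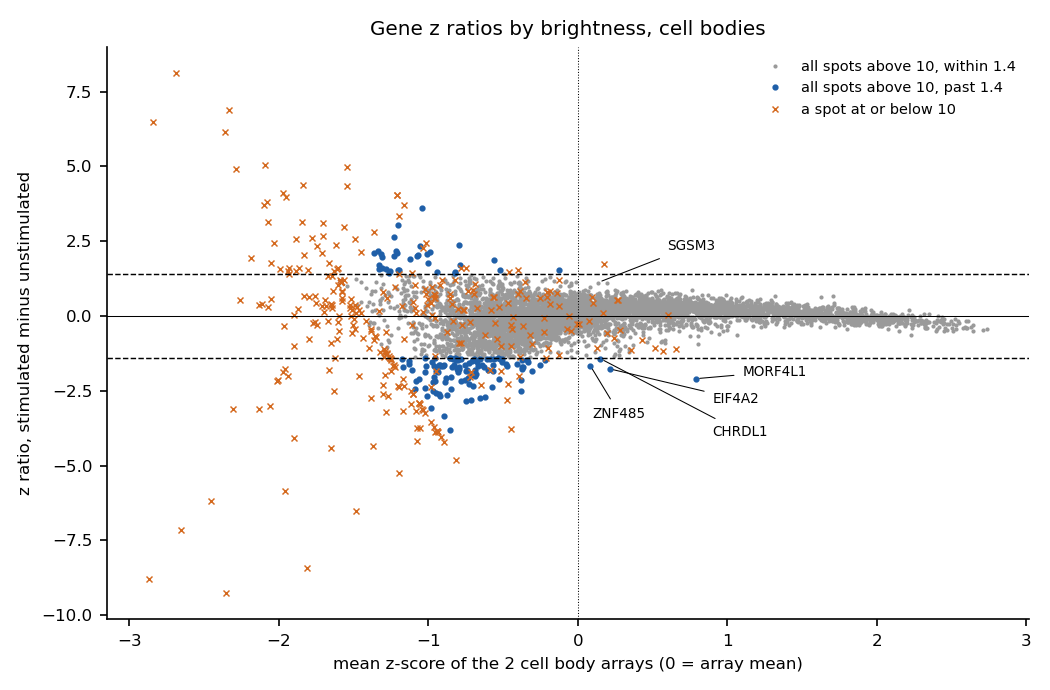
Gene z ratio (vertical axis, stimulated minus unstimulated cell bodies) against the mean z-score of the gene on both arrays (horizontal axis), 1 mark per gene. Dashed lines mark z ratios of 1.4 in size, and blue points past them lie mainly below the array mean at 0, where MORF4L1, EIF4A2, ZNF485 and CHRDL1 are the 4 exceptions.

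The 4 genes above the array mean that were lower in stimulated cell bodies were MORF4L1, EIF4A2, ZNF485 and CHRDL1. MORF4L1, which encodes the chromodomain protein MRG15 of histone acetyltransferase and deacetylase complexes, had 2 spots. The first read 777.18 in stimulated and 1556.08 in unstimulated cell bodies, and the second read 247.10 and 1197.21. Both spots were thus lower after stimulation, with z ratios of -1.24 and -2.96 and a gene mean of -2.10 (SD 1.21, n = 2 spots of 1 array a side). In axons, the gene's z ratio was -0.34.

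EIF4A2 encodes a helicase of the cap-binding translation initiation complex that also takes part in microRNA repression. Its 4 spots did not behave alike. Stimulated and unstimulated intensities were 26.04 and 247.84 at the first spot, 307.43 and 854.59 at the second, 898.29 and 990.12 at the third, and 83.05 and 210.61 at the last. Their z ratios were -4.01, -1.78, 0.04 and -1.33, so that 3 spots were lower and the brightest one was not, around a gene mean of -1.77 (SD 1.68, n = 4 spots). The paralog EIF4A3, a helicase of the exon junction complex, had a z ratio of 0.35 over 3 spots, and EIF4A1 had 1 of its 2 spots at 10 and gives no gene level.

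ZNF485, a zinc finger gene of unknown target, and CHRDL1, which encodes a secreted antagonist of bone morphogenetic proteins, had 1 spot each. ZNF485 read 125.16 in stimulated and 356.20 in unstimulated cell bodies, with a z ratio of -1.66. CHRDL1 read 151.16 and 380.28, with a z ratio of -1.42, just past the threshold. In axons the z ratio of ZNF485 was -1.46, and that of CHRDL1 was 0.55. Across 13 ways of computing the values, the one used here and the identical second table included, all 4 genes stayed below 0. The undivided difference and the division by the SD over genes only rescale the values, so they could not change a sign. CHRDL1 came to -1.38 with the robust z-score, on the other side of the threshold.

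The next 11 genes of this end had z ratios from -1.34 to -1.01. YWHAE, a 14-3-3 adaptor protein, led them with 2 spots at -2.15 and -0.54. CYRIB, a regulator of RAC1 and the actin cortex, and CKMT1A, the mitochondrial creatine kinase, each combined a dim spot at -2.65 or -2.26 with a bright spot at 0.03 or -0.10. PIGS, a subunit of the enzyme that attaches glycosylphosphatidylinositol anchors to proteins, was the opposite case. Its spots read 248.17 against 517.66 and 228.53 against 475.84, and their z ratios were -1.11 and -1.09. The remaining 7 genes had 1 spot each. They were PPIC, a cyclophilin of the secretory pathway (-1.30), CDC73, a subunit of the PAF1 transcription elongation complex (-1.26), ECPAS, a proteasome adaptor (-1.22), SNX2, a retromer sorting nexin (-1.19), and SMCO4, IGSF21 and DOK6 (-1.11, -1.09 and -1.01).

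At the other end no gene above the array mean passed the threshold. SGSM3, a regulator of small GTPases, was highest, with 277.20 in stimulated and 207.64 in unstimulated cell bodies and a z ratio of 1.12. EPCAM, an adhesion molecule best known from epithelia, read 312.62 and 232.17 (1.11), and PRELID2, a relative of mitochondrial lipid carriers, read 241.53 and 195.37 (0.97). The next 12 lay between 0.87 and 0.80. Among them were PI4KB, a Golgi phosphatidylinositol kinase, LCP1, an actin bundling protein of leukocytes, SEH1L, a nuclear pore subunit, NDUFB1, a subunit of respiratory complex I, and CDK9, the kinase that releases paused RNA polymerase II. All 15 rested on a single spot, so that none could be checked against a further clone.

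**Figure D2:**
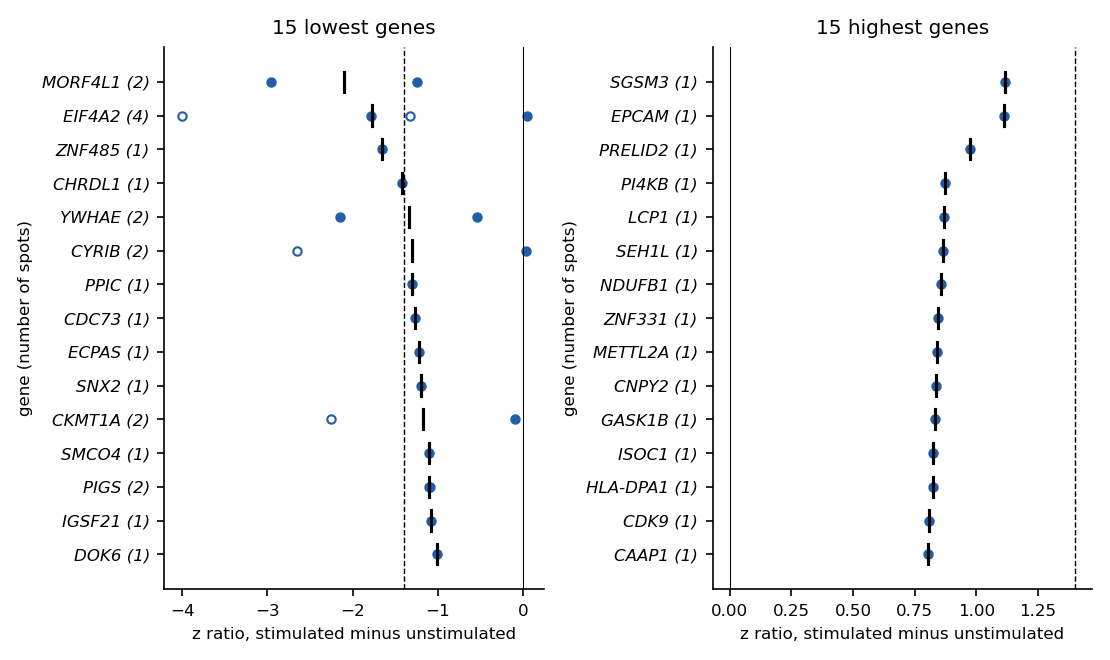
Z ratio of every spot (points, open where the spot lies at or below the array mean) and of the gene (black bars) for the 15 lowest and 15 highest genes above the array mean, with the number of spots in parentheses. The dashed line marks 1.4 in size, the spots of EIF4A2 run from -4.01 to 0.04, and the highest genes all have 1 spot.

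Genes with several clones allowed spots to be compared, and in most of them the spots did not share a sign. Of the 383 genes with 3 or more spots, all above 10, the spots were all on 1 side of 0 in 110. Of these, 74 were above 0 and 36 not above 0, where 54.8% of all genes with spots above 10 were above 0. Genes of the 110 named below were picked for that shared sign, which is therefore no support of its own. Only EIF4A2 among the 383 passed the threshold, which 2.41% of all 5935 genes with spots above 10 did. The lowest of the 110 was EWSR1, an RNA-binding protein of transcription and splicing, at -1.38, but its 3 spots ran from -2.99 to -0.51 and all were dim. PPIA, the abundant cytosolic cyclophilin A, had 5 spots that all read lower in stimulated cell bodies, at 88.31 against 185.55, 63.89 against 125.69, 227.23 against 400.64, 143.94 against 234.72 and 87.65 against 217.28. Its z ratio was -0.82 (SD 0.31, n = 5 spots), and no spot of it was above -0.46.

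Of 34 tubulin and microtubule genes, 19 were above 0, with a median of 0.04. TUBA1C, an alpha-tubulin, had a z ratio of -0.94 (SD 0.47, n = 5 spots), and TUBB4B, a beta-tubulin, had -0.79 (SD 0.63, n = 7 spots), while TUBB4A lay at 0.42 on 1 spot. The 13 spots of TUBA1B, another alpha-tubulin, split by brightness, since the dim ones ran from -2.47 to -0.06 and those above the array mean from -0.26 to 0.59. The other genes at the low end of those with spots of 1 sign were TIMM8A, a chaperone of mitochondrial import (-0.86), UQCRH, a hinge subunit of respiratory complex III (-0.83), EIF3D, a cap-binding subunit of initiation factor 3 (-0.80), and PPP1R7, a regulator of protein phosphatase 1 (-0.77). At the high end were YBX3, a cold shock domain RNA-binding protein (0.95 over 4 spots), FA2H, a fatty acid hydroxylase of myelin lipids (0.82), COTL1, an actin-binding protein (0.78), AHCYL1, an inhibitor of the inositol trisphosphate receptor (0.78), VGLL4, a co-repressor of TEAD factors (0.72), NMB, the neuropeptide neuromedin B (0.70), PTTG1IP (0.68) and KRT19 (0.68). None of them reached 1.4, and VGLL4 turned to -0.25 when only spots above the array mean were used.

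Most proteasome genes lay below 0, and none with a measured level on both arrays passed the threshold, which 2.41% of all such genes did. The proteasome is the protease that degrades ubiquitin-tagged proteins, built of a barrel of alpha and beta subunits, the 20S core, and a 19S cap that unfolds the substrate. Of 30 genes of the list, 24 were not above 0, where 45.1% of all genes were not, and the median z ratio was -0.28 beside 0.05 over all genes. Of the 27 with all spots above 10, 22 were not above 0, where 45.2% of all such genes were not. The 13 genes of the 20S core, a division made after the values were seen, were all below 0, with a median of -0.44. PSMA6 read 58.52 in stimulated and 131.45 in unstimulated cell bodies (z ratio -0.99), PSMA7 read 28.16 and 62.13 (-0.81), PSMB6 read 34.25 and 70.77 (-0.71), and PSMB3 read 91.90 and 165.89 (-0.60). These alpha and beta subunits were all lower in raw intensity after stimulation, as were PSMA3, PSMA4, PSMB1, PSMB2 and PSMB8. Dim genes as a whole were lower in raw intensity too. Their medians were 33.7 in stimulated and 59.7 in unstimulated cell bodies in the dimmest sixth, and 67.3 and 104.0 in the next. The best covered subunit, PSMB4, had 8 spots and a z ratio of -0.20 (SD 0.30), and the brightest, PSMB10, an inducible immunoproteasome subunit, read 12149.5 and 11605.7 (-0.14).

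The 13 genes of the 19S cap were mixed, with 5 above and 8 not above 0 and a median of -0.12. PSMD11, a lid subunit, had both spots lower (-0.86 and -0.69), and PSMD14, the deubiquitinase of the lid, read 132.22 against 227.80 (-0.57). PSMD2, a base subunit, lay at 0.20 over 3 spots, and PSMC3, an ATPase of the base, at 0.48. PSMC6 read 10 in stimulated cell bodies and gives no level. The 20S genes were mostly dim, and dim genes as a whole had a median z ratio of -0.23 in the dimmest sixth. Set against genes of their own brightness sixth, 23 of the 27 proteasome genes with all spots above 10 lay below the median of that sixth. Of the 12 such core genes, 11 did. The median of all 13 core genes stayed below that of all genes under 13 of 13 ways of computing the values. Some of these ways only rescale or repeat the main values and could not change that order. The core was set apart after its values were seen, and every setting reuses the same arrays, so these core counts are not independent support. The part of brightness in the proteasome values was not tested. UBA1, the enzyme that activates ubiquitin, read 11.84 against 111.18 on a single dim spot, the lowest z ratio of all genes with spots above 10 (-3.82). The median of the list of ubiquitin ligases and conjugating enzymes that holds it showed no such shift. Of its 77 genes, 41 were above 0, where 54.9% of all genes were, with a median of 0.02. Past the threshold, 2 were higher and 5 were lower, beside 1.37% and 2.98% of all genes. Of its 69 genes with all spots above 10, 0 were higher and 2, UBA1 included, were lower, beside 0.556% and 1.85% of all such genes.

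**Figure D3:**
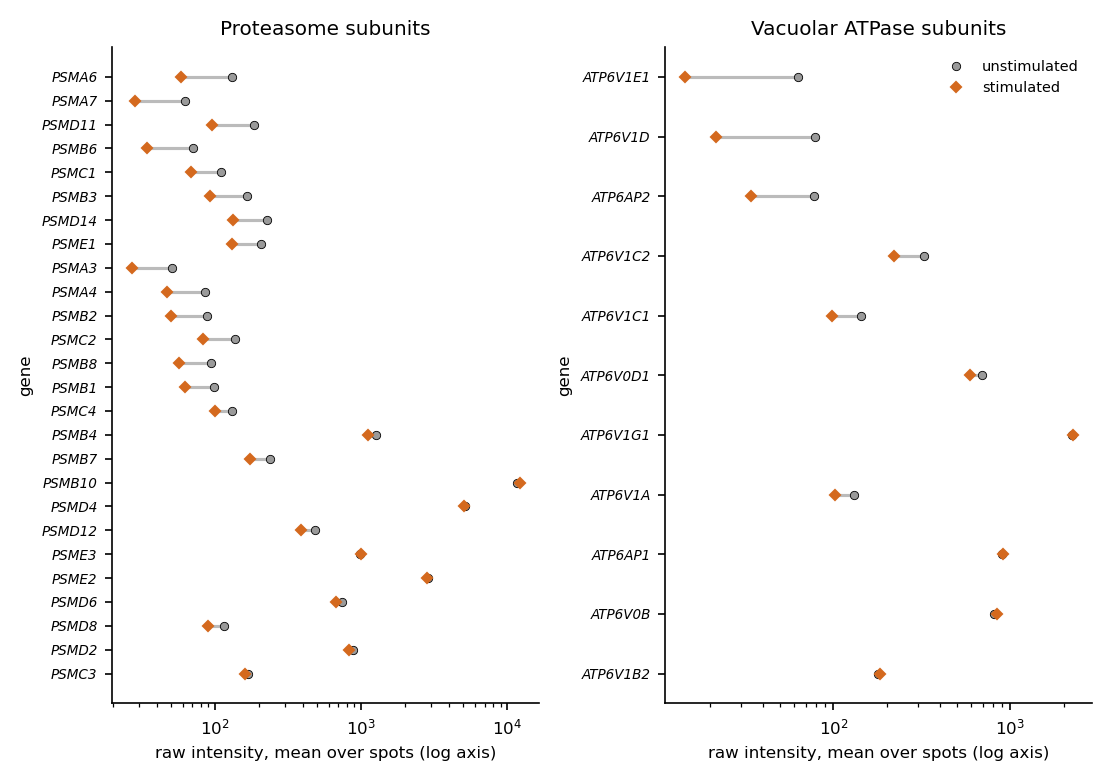
Raw intensity (log axis, mean over the spots of a gene) in unstimulated (circles) and stimulated (diamonds) cell bodies for proteasome and vacuolar ATPase subunits with all spots above 10, lowest z ratio at the top. The dim subunits such as PSMA6 and ATP6V1E1 show the widest gaps, and bright ones such as PSMB10 show none.

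Some dim lysosomal genes were lower in stimulated cell bodies, and no gene of the list above the array mean passed the threshold. The vacuolar ATPase is the proton pump that acidifies lysosomes and synaptic vesicles, with a soluble V1 sector that splits ATP and a V0 sector in the membrane. Of 44 genes of lysosomal enzymes and pump subunits, 39 had all spots above 10. Among the 44, 0 were higher and 7 were lower, beside 1.37% and 2.98% of all genes. Of the 7, 3 (GM2A, ATP6V1E2 and ATP6V0E2) rested on a spot at or below 10. The other 4 were dim. ATP6V1E1, a stalk subunit of V1, read 14.39 in stimulated and 63.38 in unstimulated cell bodies (z ratio -2.20), ATP6V1D, of the central shaft, read 21.53 and 78.34 (-1.86), the spot for ATP6V1G2-DDX39B, a readthrough of a V1 subunit and a splicing helicase, read 24.73 and 93.32 (-1.96), and SCARB2, a lysosomal membrane protein, read 17.95 and 54.02 (-1.41).

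Brighter genes of the same organelle ran to both sides of 0. ATP6V1G1 read 2249.73 and 2245.46 (0.05), ATP6AP1 906.59 and 896.91 (0.28), ATP6V0B 840.76 and 805.12 (0.38), and LAMP1, the main lysosomal membrane glycoprotein, 1613.01 and 1461.29 (0.36). LAMP2, its relative, read 216.00 and 328.23 (-0.39). The enzymes were likewise spread, from CTSS (-1.26), TPP1 (-1.21) and CTSK (-1.11), all dim proteases, to CTSL (0.80) and IDS (0.72). Over the 18 genes above the array mean the median was 0.07, beside 0.14 over all such genes. None of the 18 was called, where 0.144% of all such genes were.

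Several further lists had medians below that of all genes, of which 45.1% were not above 0. Of 42 genes taken by the symbols of translation initiation and elongation factors, 28 were not above 0, with a median of -0.16. Without 4 that are not such factors, 25 of 38 were not above 0. Of the 42, 31 of the 40 with all spots above 10 lay below the median of their brightness sixth. Above the array mean the lowest after EIF4A2 were EIF4H, a partner of eIF4A helicases, with spots at -1.65 and 0.12, EIF3K (-0.51, 2 spots), a subunit of initiation factor 3, and EEF1B2 (-0.46, 2 spots), an exchange factor for the elongation factor. The 6 measured 14-3-3 genes, adaptors that bind phosphorylated proteins, had a median of -0.31, and 5 were not above 0. After YWHAE they were YWHAG (-0.67), YWHAB (-0.46, with spots at -1.32 and 0.39), SFN (-0.16) and YWHAZ (-0.12), and YWHAH was above 0 (0.39). Of 21 histone deacetylases and readers of methyl marks, 14 were not above 0, with a median of -0.22. The lowest of those with all spots above 10 were SIRT6, a chromatin deacetylase (-1.31), and CBX3, a heterochromatin protein (-1.21), while the brighter HDAC6, CBX2, CBX5 and CBX1 lay between -0.28 and 0.24. No gene of the last list passed the threshold, which 4.34% of all genes did.

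MORF4L1 itself belongs to a list of 16 genes of histone acetyltransferase complexes, of which 8 were above 0. KAT5, the acetyltransferase of the TIP60 complex (-1.01), ING4 (-1.08 over 2 spots), VPS72 (-1.14) and YEATS4 (-0.92) were dim and lower, while RUVBL1 (-0.21), RUVBL2 (0.06), DMAP1 (0.08), BRD8 (-0.30), MRGBP (0.26) and ING5 (0.54) lay on both sides of 0.

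Of 65 genes of the respiratory chain, 43 were not above 0, where 45.1% of all genes were not, and the median was -0.10. Past the threshold, 3 were lower and 0 higher, beside 2.98% and 1.37% of all genes. Of the 60 with all spots above 10, 36 lay below the median of their brightness sixth. The 8 genes of complex III, again a division made after the values were seen, held 7 of the 43. Among the 7, UQCRC2 had 2 spots at -1.70 and -0.80. The single call with spots above 10 was NDUFA5 of complex I, at 57.87 against 167.73 (-1.55). Above the array mean the subunits ran from NDUFB6 at 26879.6 and 27855.7 (-0.48) through COX4I1 at -0.06 to COX7A1 (0.50), NDUFA10 (0.72) and NDUFB1 (0.86). Of 43 genes of redox and metal handling, 5 were lower and 0 higher, beside 2.98% lower and 1.37% higher of all genes. Thioredoxin TXN read 25.91 and 99.40 (-2.01), TXNL1, a thioredoxin-like protein of the proteasome, 29.45 and 95.51 (-1.67), GSTZ1 16.28 and 60.14 (-1.84), and GSTT1 12.53 and 40.72 (-1.51). All were dim, and the last of the 5, TXNDC9, had its spot below 10. The bright NQO1, a quinone reductase, had spots at -1.26 and -0.05.

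**Figure D4:**
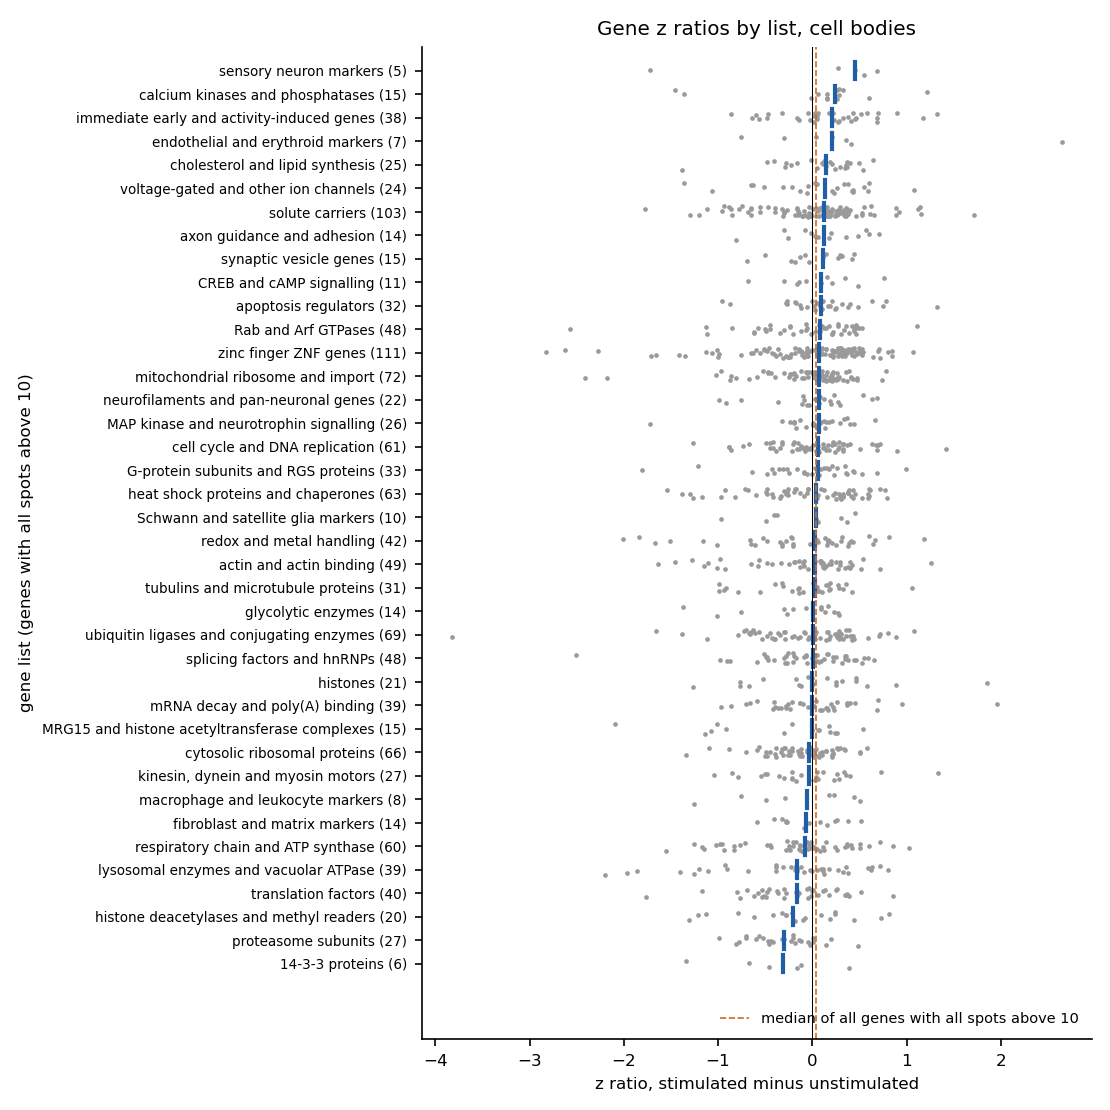
Z ratios of the genes of each list (grey points, genes with all spots above 10, number in parentheses) with the list median (blue bar), lists ordered by that median. The dashed line is the median of all such genes, and the medians run from -0.31 for 14-3-3 proteins and -0.30 for proteasome subunits to 0.45 for sensory neuron markers.

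None of the 38 listed immediate early genes with all spots above 10 passed the threshold, which 2.41% of all 5935 such genes did. Under other scalings or filters some of the 38 did, in both directions. Upward, MCL1 reached 2.57, PTGS2 2.21, ZFP36L2 1.93, PPP1R15A 1.78 and ZFP36L1 1.41. Downward, NFIL3 reached -1.52, IER3 -1.52 and NRN1 -1.46. Several of these settings also called more of all genes, such as 292 higher and 424 lower with only spots above 10. Of all 42 immediate early and activity-induced genes on the arrays, 29 were above 0, where 54.9% of all genes were. Their median z ratio was 0.21 beside 0.05 over all genes. Of the 38, 27 were above 0, where 54.8% of all 5935 such genes were. The calls among the 42, GADD45G and CREM, rested on spots at or below 10. FOS, the classic early transcription factor, read 157.06 in stimulated and 189.85 in unstimulated cell bodies (z ratio 0.18), ARC, a regulator of synaptic receptors, 95.52 and 119.05 (0.20), and NR4A1, a nuclear receptor, 162.43 and 182.86 (0.33). These 3 genes were thus dimmer after stimulation in raw intensity and above the equal z-score line. JUNB had 3 spots from 0.00 to 0.66, FOSL1 read 241.76 and 276.75 (0.21), FOSL2 4132.96 and 4381.95 (-0.17), IER2 7624.83 and 7585.19 (-0.14), and ATF3 53.34 and 78.28 (-0.04). JUN gives no gene level, since 1 of its 2 spots read 9.82 in stimulated cell bodies, and NR4A2 stood at 10 on both arrays. A spot at 10 on both arrays gets a z ratio of 1.12, so that NR4A2 counts among the 29 above 0 without a measured level.

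On the high side, MCL1, a short-lived survival protein, read 44.44 in stimulated and 35.60 in unstimulated cell bodies (1.32), PTGS2, the inducible cyclooxygenase, 113.09 and 89.28 (1.17), and PPP1R15A, which restores translation after stress, 57.54 and 54.71 (0.90). All of these were dim, as was KLF10, a transcription factor (0.69). Above the array mean, ZFP36L2, which binds AU-rich elements and promotes mRNA decay, read 1307.12 and 1032.52 (0.70), and its dimmer relatives ZFP36L1 and ZFP36 lay at 0.69 and 0.45. MAFF (0.52), PLK3 (0.46), ID1 (0.43, 2 spots) and GADD45A (0.41) followed. On the low side were NFIL3, a repressor of the clock (54.76 and 116.69, -0.87), RGS2, an inhibitor of G-protein signalling (-0.64), BTG1 (-0.60), NRN1, a neuritin of axon growth (-0.57), DUSP2 (-0.48) and INHBA (-0.47). The list median lay above that of all genes under 12 of 13 ways of computing the values and below it when only spots above the array mean were used. Some of the 12 only rescale or repeat the main values and could not change that order. In axons the same list had a median of 0.05.

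CREB binds the palindrome TGACGTCA, the cAMP response element, which lies in the promoters of many such genes. It was searched on RefSeq windows of 300 bases, from 250 bases before to 50 after each annotated start in build GRCm38.p6. Only the exact palindrome was searched, so variant or partial elements were not counted. The motif reads the same on both strands. It was present in 3 of 40 windows of the 32 immediate early genes that matched (7.5%) and in 1.79% of all 32851 windows. The matches are shown with the motif in capitals because they are the only exact ones found among these genes.
Ppp1r15a, chr7:45526265-45526288, minus strand: ctctccggTGACGTCAgcacagcg
Plk2, chr13:110394974-110394997, plus strand: gctcgccgTGACGTCAcgaggccc
Maff, chr15:79347483-79347506, plus strand: tggggcggTGACGTCActgcatga
Their genes lay at 0.90, 0.02 and 0.52 in the order shown, none past the threshold. Of 12 genes of CREB and cAMP signalling, 6 were above 0, where 54.9% of all genes were. Their median was 0.01, and it lay below that of all genes under 12 of 13 ways of computing the values. Some of the 12 ways only rescale or repeat the main values and could not change that order. CREM, at or below 10 in stimulated cell bodies, was the only call of this list, beside 4.34% called of all genes. CREB1 itself was dim (19.94 and 22.07, 0.77), ATF4 lay at 0.35 over 4 spots, PRKAR2A at -0.30 and CREB3 at -0.69 over 2 spots.

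**Figure D5:**
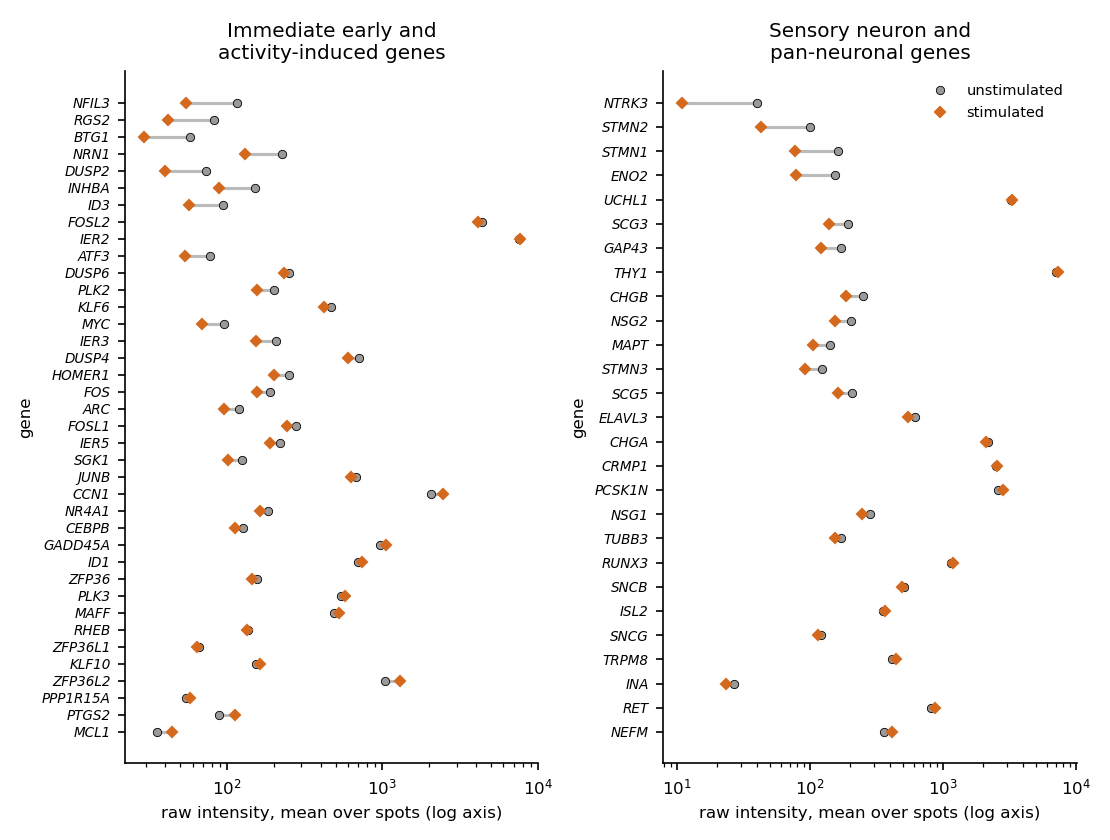
Raw intensity (log axis, mean over the spots of a gene) in unstimulated (circles) and stimulated (diamonds) cell bodies for immediate early genes and for neuronal marker genes with all spots above 10, lowest z ratio at the top. FOS, ARC and NR4A1 have slightly lower raw values after stimulation, and ZFP36L2 and PTGS2 have higher ones.

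Calcium signalling genes differed in both directions among dim spots. Of 17 genes, 12 were above 0 with a median of 0.16, beside 54.9% above 0 and a median of 0.05 over all genes. Past the threshold, 0 were higher and 2 were lower, beside 1.37% and 2.98% of all genes. CAMK4, the nuclear calcium kinase that phosphorylates CREB, read 54.76 in stimulated and 153.05 in unstimulated cell bodies (-1.46, past the threshold), as did NCALD only through a spot at or below 10, and KCNIP3, the calcium-binding repressor DREAM, read 105.22 and 265.66 (-1.36). NCS1, a neuronal calcium sensor, read 58.53 and 47.91 (1.22). All 10 genes above the array mean lay above 0, as did 69.0% of all genes above that mean, led by RCAN1, an activity-induced inhibitor of calcineurin, at 1201.43 and 999.95 (0.60). CALR, the calcium-storing chaperone of the endoplasmic reticulum, lay at 0.33 over 3 spots (SD 0.09), and CALB2, the buffer calretinin, at 0.28.

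Of the genes that mark the neurons themselves, 1 passed the threshold, which 2.41% of all genes with spots above 10 did. Of the sensory neuron markers, 5 were on the array with spots above 10. RET, a growth factor receptor, read 863.84 in stimulated and 812.40 in unstimulated cell bodies (0.69, 2 spots), TRPM8, the cold channel, 439.56 and 408.79 (0.55), ISL2, a homeobox factor, 367.65 and 355.10 (0.45), and RUNX3, a factor of proprioceptors, 1184.74 and 1147.78 (0.27). The value of RET combined a dim spot at 1.11 (29.72 and 27.11) with a bright spot at 0.27 (1697.95 and 1597.69). NTRK3, the neurotrophin-3 receptor, read 10.92 and 39.60, little above 10 in stimulated cell bodies (-1.72, past the threshold). Of 22 pan-neuronal genes, 13 were above 0 with a median of 0.07, where 54.8% of all genes with spots above 10 were above 0. NEFM, a neurofilament subunit, was highest among those above the array mean (411.33 and 361.02, 0.69). STMN2 (42.92 and 99.00, -0.99) and STMN1 (76.45 and 161.88, -0.92), regulators of microtubule growth, and ENO2 (78.09 and 153.85, -0.76), the neuronal enolase, were lowest, and all were dim. UCHL1, an abundant neuronal deubiquitinase, had 3 spots from -0.78 to -0.14. GAP43, the growth cone protein, lay at -0.10, and TUBB3, the neuronal beta-tubulin, at 0.27.

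Markers of other cells showed no common shift. Among all genes, 54.9% were above 0 and 4.34% passed the threshold. Of 12 markers of Schwann and satellite glia, 6 were above 0, and their summed intensity was 4702 in stimulated and 5029 in unstimulated cell bodies. SOX10, the glial transcription factor, lay at 0.30 over 2 spots, GLUL, glutamine synthetase, at 0.04 over 4 spots, and CDH19 at -0.96. MATN2, the only call of this list, read 10 or lower on both arrays. Of 15 fibroblast and matrix markers, 7 were above 0, with sums of 49696 and 50153. FN1, fibronectin, read 11113.1 and 11389.6 (-0.28), and SPARC lay at 0.26 over 2 spots. PDGFRA stood at 10 on both arrays, which gives a z ratio of 1.12, and so counts as above 0 without a measured level. Of 9 macrophage and leukocyte markers, 5 were above 0, with sums of 18615 and 20099, and C1QB, a complement subunit, read 14548.9 and 16040.3 (-0.49). Of 7 endothelial and erythroid markers, 5 were above 0, with sums of 2237 and 2236, and ENG, a dim endothelial receptor and the only call, read 29.07 and 13.22 (2.64). The part of these cells in the differences above was not tested.

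The study searched 3′-UTRs of transcripts that changed within minutes of synaptic activity in rat hippocampal neurons, not in the DRG arrays used here. A motif of its destabilized transcripts matched the seed that miR-326-3p and miR-330-5p share. Both mature sequences from RefSeq (build GRCm38.p6) are shown because the target list used next rests on that seed. It stands in capitals at bases 2 to 8.
mmu-miR-326-3p, chr7:99552328-99552348, plus strand: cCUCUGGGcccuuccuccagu
mmu-miR-330-5p, chr7:19181486-19181507, plus strand: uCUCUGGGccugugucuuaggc
Of the targets that the study lists for this seed, predicted with rat as the species, 88 were on the arrays. The arrays used here differ from its hippocampal data in cells, species and stimulus, and its finding was not tested. In stimulated cell bodies 51 of them were above 0, as were 54.9% of all genes. Past the threshold, 1 was higher and 3 were lower, close to the shares of 1.37% and 2.98% over all genes, and the median z ratio was 0.09 beside 0.05 over all genes. Of the 84 with all spots above 10, 40 lay below the median of their brightness sixth. Above the array mean, the largest were ELOF1, a transcription elongation factor, at 399.24 in stimulated and 726.38 in unstimulated cell bodies (-0.90), STAT6, a transcription factor of cytokine signalling, at 253.76 and 377.80 (-0.60), and SRPRA, the signal recognition particle receptor, with a z ratio of 0.59 over 4 spots. ARRB1, the beta-arrestin gene whose intron holds the gene of miR-326, read 21.83 and 77.32 on 1 dim spot (-1.80).

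Past the threshold the remaining genes were nearly all dim and on 1 spot. The lowest after UBA1 were CD40, a receptor of the tumour necrosis factor family, at 12.41 in stimulated and 93.91 in unstimulated cell bodies (-3.36), P3H1, a collagen prolyl hydroxylase (-3.08), ZNF337 (-2.83), MEPCE, a capping enzyme of the 7SK RNA (-2.79), TPD52L1 (-2.73) and ZC3H12A, an RNase that cleaves inflammatory mRNAs, at 24.66 and 130.72 (-2.71). Among the highest were EDEM3, of glycoprotein degradation, at 53.07 and 14.84 (3.60), PRNP, the prion protein, at 34.06 and 12.70 (3.05), ENG, TADA2B, a histone acetyltransferase adaptor, at 62.74 and 30.40 (2.36), and, further down, EZH2, the Polycomb methyltransferase, at 26.37 and 15.60 (2.09). These names were taken after the values were seen. Just inside the threshold lay CDC42EP1 (1.419) and MFAP5 (-1.401), and just outside it NPTX2, a neuronal pentraxin (1.397), and PREPL (-1.388), so that the threshold divided genes that hardly differed.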

How the data were processed

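The authors hybridized amplified, radiolabelled RNA to nylon cDNA arrays and deposited raw phosphor imager intensity values, not normalized between arrays, in 2 tables that hold identical values (0 differences). No source used here says how background was treated. Spots were named through the platform annotation, without any match of clones to mouse sequence.

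The log10 intensity was z-scored per array, and z ratios were averaged over the spots of a gene. Lists of genes were taken by symbol or symbol prefix. Genes were named by rule: the 15 highest and 15 lowest above the array mean with all spots above 10, the 8 highest and 8 lowest with 3 or more spots of 1 sign, 2 to 4 leading members of each of 39 lists, paralogs, markers and immediate early genes. Proteasome, lysosomal, redox, chromatin, calcium, target and dim genes named beyond the rule were taken after their values were seen. The members and lists were chosen with earlier results of these data known.

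The 14 other settings tried were other scalings (undivided difference, SD over genes, log2 ratio, robust z-score), quantile, loess (span 0.3) and normexp (offset 50) processing, 2 filters on dim spots, a median over spots, centring by membrane position, thresholds of 1.3 and 2, and the other table. Lists without genes that have a spot at or below 10, lists without genes that are not subunits, and sub-lists were added after seeing the data. Python 3.11.15, numpy 2.4.6, pandas 2.3.3, R 4.3.3 and limma 3.58.1 were used, and the scripts were tested on simulated data.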

Additional observations from a re-analysis of the deposited data

How the results depend on the processing

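Each array is a single pooled sample, so that leaving out a replicate was not possible. No paired analysis was possible because each group has 1 array. The counts of 86 higher and 187 lower genes became 4 and 7 when the difference was not divided by its SD, 218 and 370 when divided by the SD over genes, 282 and 444 with normexp, 292 and 424 with spots above 10 only, and 49 and 94 at a threshold of 2. The higher count alone moved to 56 with the log2 ratio, 172 with the robust z-score and 133 with quantile normalization. Among the 2782 genes above the array mean, the counts of 0 higher and 4 lower genes became 2 and 14 when divided by the SD over genes, 45 and 52 with normexp, 18 and 32 with spots above 10 only, and 110 and 127 with spots above the array mean only, where the smaller SD of the retained spots divides the difference. The lower count alone moved to 0 without that division, 60 with the robust z-score, 8 with quantile normalization, 8 with loess and 1 at a threshold of 2. The median over all genes moved from 0.05 to -0.13 with the robust z-score, and was 0.16 on the log2 scale. The z ratio of MATN2, which rests on a spot at or below 10, turned to 0.64 with normexp. Of the list medians under these settings, 390 values moved by less than the standard error over the genes of the list and 120 by more. The number of arrays, the spots at or below 10 and the wide spread of dim spots limit every value.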
